A study of Rattus norvegicus with 27 samples.

Results

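Histone genes were taken by their symbol: every gene whose single symbol in the platform annotation begins with H1f, H2a, H2b, H3c, H3f, H4c or H4f, followed on its brightest probe set. The rule found 31 of the 18166 genes with a probe set of their own. Of these, 11 carried a symbol in which c is followed by a number and are called clustered, and the other 20 are called variant. The division is by name only. The variant class also holds the linker histones H1f1, H1f5 and H1f6, whose genes lie among the clustered ones. It further holds H3f4 and H2bu1, which lie next to the clustered H2ac25, and H2bcl1, which lies next to H1f5. H3f3c, also in this class, is listed by RefSeq as a pseudogene. A gene was tested when its mean over all arrays reached a log2 value of 5.39, the 30th percentile of genes. This left 23 histone genes, 8 clustered (H2ac4, H2ac12, H2ac21, H2ac25, H2bc1, H2bc8, H2bc12 and H4c14) and 15 variant (H1f1, H1f5, H1f7, H1f8, H1f10, H2ab3, H2aj, H2al3, H2ap, H2ax, H2az1, H3f3b, H3f3c, H3f3l1 and H3f4). The clustered genes H2ac1, H2ac20 and H2bc9 and the variant genes H1f6, H2al2l, H2az2l1, H2bcl1 and H2bu1 did not pass, and their intensity stayed between 0.00358 and 43.9 over all arrays.

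Histones are the proteins around which DNA is wound in nucleosomes: pairs of H2A, H2B, H3 and H4 form the core, and H1 binds the DNA between cores. The clustered genes are copied mainly while a cell replicates its DNA, lack introns, and give an mRNA that ends in a stem-loop in place of a poly(A) tail. The stem-loop is bound by Slbp, which acts in the processing, translation and decay of these mRNAs. Replacement variants such as H2A.Z (H2az1) and the H3 made from H3f3b are transcribed outside replication, give polyadenylated mRNA, and supply new histones to cells that no longer divide, such as neurons.

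The arrays measured hippocampal tissue of male Long Evans rats. Control rats (NIC) were sham operated and not ischemic; the other rats (8R) had 10 min of normothermic complete global brain ischemia, made by occluding the carotid arteries and withdrawing blood to a mean arterial pressure of 45 mm Hg, followed by 8 h of reperfusion. CA1, the field whose pyramidal neurons are most sensitive to global ischemia, and CA3 were dissected, and tissue of 5 rats was pooled for each replicate. From the supernatant left after removing mitochondria, 20% gave total RNA. The rest was pelleted through a 20% sucrose pad to give the fraction named polysome RNA. This fraction also gave signal for RNAs that are not translated, such as Meg3, described further on. There were 27 arrays in 8 groups: 3 pools in each NIC group and in 8R CA1 polysome, and 4 in 8R CA1 total, 8R CA3 total and 8R CA3 polysome. Replicates 1, 2 and 3 of 8R CA1 polysome are pools 1, 3 and 4; elsewhere the replicate number is the pool number. Which cells of these pieces carried a histone RNA is not measured, and fewer cells of a type and less RNA per cell cannot be told apart. Summed intensity of 9 CA1 pyramidal markers was 1810 to 1961 in NIC CA1 total RNA and 983 to 1163 in NIC CA3 total RNA, and that of 12 CA3 pyramidal markers was 1972 to 2109 and 3141 to 3217. The p-values below measure the spread between arrays within groups. Except where the pool enters the fit, they treat the total and polysome arrays of a pool as independent. Within a group the lowest correlation between arrays was between 0.955 and 0.979.

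The stretch upstream of the gene is shown for H2bc12 and H2ac21 (clustered) and H2az1 and H3f3b (variant), since many of the results turn on these 4 genes. RefSeq (GRCr8) had a promoter entry for 29 of the 31 members, 10 clustered and 19 variant, and the 250 bases before the annotated start were searched. H4c14, on which many results also turn, and H3f3c had no entry, so neither is shown or in the motif counts. Capitals mark TATAAA (the form of the TATA box searched), CCAAT (the element bound by NF-Y) and the octamer ATTTGCAT (bound by octamer factors such as Pou2f1), each on either strand. H2bc12 is read from chr17:47181941-47182190, minus strand; H2ac21 from chr2:186467974-186468223, plus strand; H2az1 from chr2:229028845-229029094, plus strand; H3f3b from chr10:101757637-101757886, minus strand.
H2bc12: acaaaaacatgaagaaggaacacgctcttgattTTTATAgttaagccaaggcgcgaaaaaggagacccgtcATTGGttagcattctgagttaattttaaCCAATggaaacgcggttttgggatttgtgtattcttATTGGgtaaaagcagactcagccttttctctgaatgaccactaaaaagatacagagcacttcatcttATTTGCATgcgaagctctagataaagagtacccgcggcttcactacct
H2ac21: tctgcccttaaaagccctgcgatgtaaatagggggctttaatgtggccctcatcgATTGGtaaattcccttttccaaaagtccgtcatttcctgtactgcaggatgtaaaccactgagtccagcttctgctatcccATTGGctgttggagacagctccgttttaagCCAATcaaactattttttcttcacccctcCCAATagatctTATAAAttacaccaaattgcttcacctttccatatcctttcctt
H2az1: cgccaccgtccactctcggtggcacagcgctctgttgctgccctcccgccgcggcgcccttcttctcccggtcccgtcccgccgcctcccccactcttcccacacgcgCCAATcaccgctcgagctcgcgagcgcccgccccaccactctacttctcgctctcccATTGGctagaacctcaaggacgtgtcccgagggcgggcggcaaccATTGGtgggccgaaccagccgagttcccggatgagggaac
H3f3b: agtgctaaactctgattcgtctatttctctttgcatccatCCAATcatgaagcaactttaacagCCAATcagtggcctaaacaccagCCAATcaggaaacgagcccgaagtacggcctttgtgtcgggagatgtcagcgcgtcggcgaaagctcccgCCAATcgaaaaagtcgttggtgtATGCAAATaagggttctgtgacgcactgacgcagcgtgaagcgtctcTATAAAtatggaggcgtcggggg
CCAAT was in the window of 10 of 10 clustered and 13 of 19 variant genes, against 34.0% of all 33469 promoters. TATAAA was in 8 of 10 clustered and 5 of 19 variant genes, against 12.9% of all promoters. The octamer was in 6 of 10 clustered and 3 of 19 variant genes, against 1.56% of all promoters. The windows are not all separate sequences: H2bc12 and H2ac12 start in opposite directions and share 248 bases of window, H2ac1 and H2bc1 share 239, and H2ac25 and H2bu1 share 217. In the printed H2bc12 window the octamer begins 48 bases before its own start, whereas the TATAAA is on the other strand and begins 41 bases before the start of H2ac12. In H2ac20 TATAAA occurs on both strands in overlapping positions. H3f3b is the variant whose window held all 3 motifs, with CCAAT at 4 positions. H2az1 had CCAAT at 3 positions and neither of the other motifs.

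After ischemia and reperfusion, 5 of the 23 histone genes differed from controls in CA1 total RNA, 2 upward and 3 downward. Over all 12716 genes tested, 26.3% were called, 20.1% higher and 6.15% lower. A gene is called where limma's adjusted p was under 0.05. Groups of 3 or 4 arrays often do not overlap. In CA1 total RNA all 8R arrays lay above all controls for 3120 of the 12716 genes and below for 1283. All differences are on the log2(intensity + 16) scale, which understates the change of dim genes. The genes that rose were the replacement variants H3f3b and H2az1, and those that fell were H4c14, a clustered gene for H4, and the linker histones H1f7 and H1f10.

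H4c14 had intensities of 197, 193 and 236 in NIC CA1 total RNA and of 97.4, 89.2, 63.8 and 46.1 in 8R CA1 total RNA. The 4 reperfused arrays all lay below the 3 controls. The difference was -1.35 ± 0.26 (SE, n = 4 against 3, limma adjusted p = 0.000274), the lowest of all 12716 genes in this comparison. It was called in each of the 19 other settings tried, with differences from -1.53 to -0.99. H4 genes are near-identical copies, so the probe set may also read RNA of other H4 genes; other H4 probe sets are described further on.

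**Figure D1:**
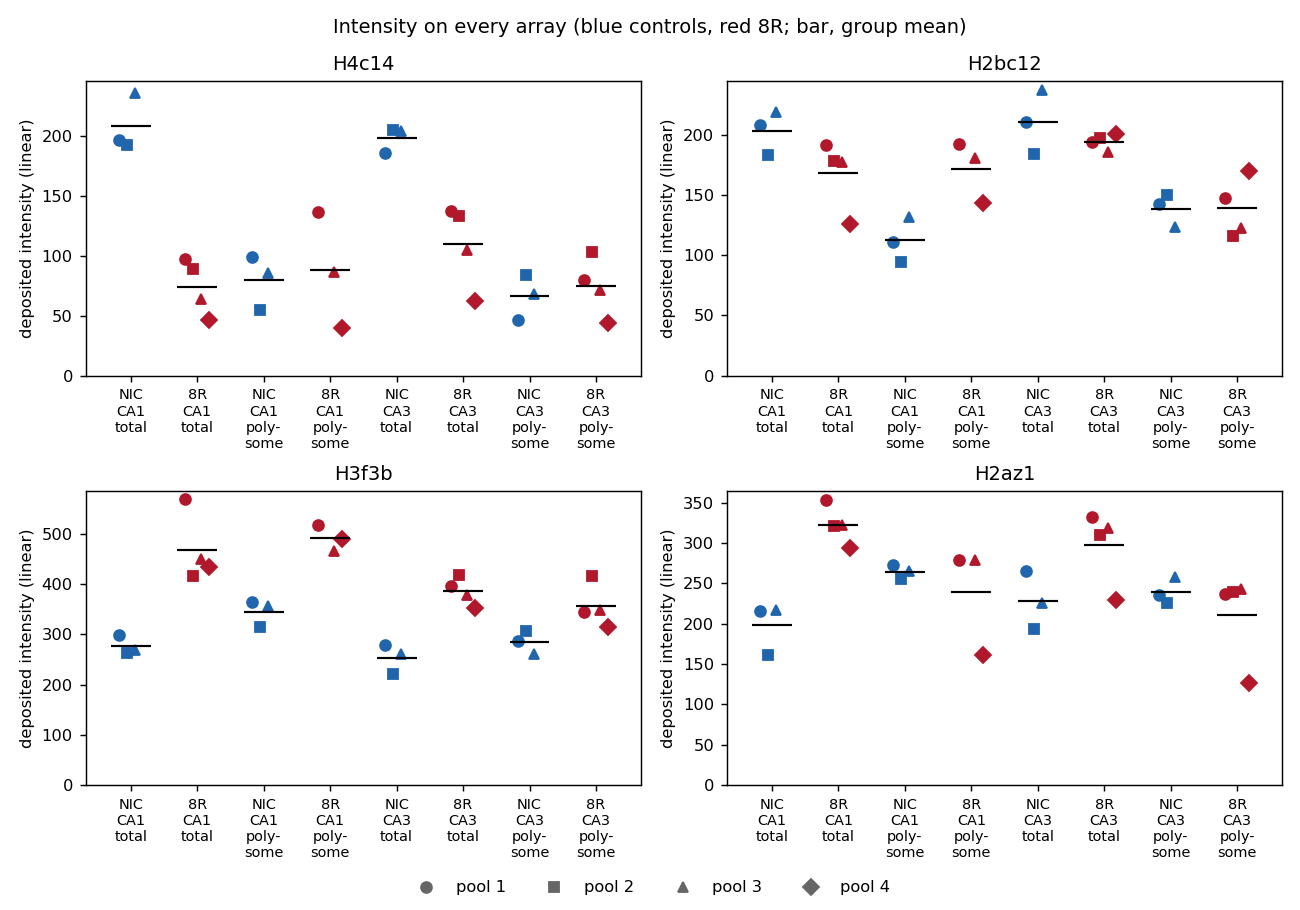
Deposited intensity (linear scale, from 0) of H4c14, H2bc12, H3f3b and H2az1 on every array of the 8 groups; blue points are controls, red points 8R, the marker shape gives the pool number and the bar the group mean. H4c14 in CA1 total RNA runs from 193 to 236 in controls and from 46.1 to 97.4 in 8R, while H3f3b runs from 264 to 299 and from 416 to 569.

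H3f3b, a gene for the replacement H3, had 299, 264 and 269 in NIC CA1 total RNA and 569, 416, 450 and 434 in 8R CA1 total RNA. All reperfused arrays lay above all controls. The rise was 0.71 ± 0.11 (SE, n = 4 against 3, limma adjusted p = 1.24e-05) and was called in all 19 other settings. A probe set that names both H3f3b and H3f3l1 was not called here, and is listed further on with other shared probe sets. The call of H3f3b thus rests on its own probe set alone. H2az1, which encodes the H2A.Z placed at promoters, had 216, 161 and 217 in controls and 354, 321, 322 and 294 after reperfusion. Again no array of the groups overlapped, and the rise was 0.67 ± 0.18 (SE, limma adjusted p = 0.00495). Without NIC CA1 total replicate 2, the lowest control, it was 0.54 with an adjusted p of 0.0576.

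The other called genes of CA1 total RNA were smaller changes near the threshold. H1f7, known as a linker histone of spermatids, had 32.1, 43.5 and 32.2 in controls and 24.5, 16.7, 19.7 and 26.8 after reperfusion. It is dim: its mean log2 value of 5.41 is just above the filter of 5.39. The median over all probe sets was 30.7 to 31.3 on the control arrays. The groups did not overlap, and the difference was -0.45 ± 0.15 (SE, limma adjusted p = 0.0202). It was -0.35 with an adjusted p of 0.142 without NIC CA1 total replicate 2, and -0.39 with 0.0691 without 8R CA1 total replicate 2. H1f10, a linker histone expressed in most tissues, had 155, 164 and 147 in controls and 118, 125, 143 and 113 after reperfusion. Its arrays did not overlap either, with a difference of -0.29 ± 0.10 (SE, limma adjusted p = 0.0261). It lost the call without NIC CA1 total replicate 1 (-0.29, adjusted p = 0.0664) or 2 (-0.25, 0.116) and without 8R CA1 total replicate 1 (-0.27, 0.0735) or 4 (-0.25, 0.0717).

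The remaining 18 histone genes did not pass in CA1 total RNA, and their differences ran from -0.38 (H3f4) to 0.25 (H2aj). Among them were the other 7 clustered genes, between -0.26 (H2bc12) and 0.19 (H2ac25). The median of the 8 clustered genes was -0.11, that of the 15 variant genes -0.12 and that of all genes 0.04. H2ax, the variant that is phosphorylated at DNA breaks, differed by -0.22 ± 0.10 (SE, limma adjusted p = 0.111), with 62.2, 55.7 and 51.5 in controls and 48.4, 51.8, 45.9 and 39.7 after reperfusion, values that overlap.

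In CA1 polysome RNA 2 of the 23 genes were called, both higher, against 8.33% of all genes (4.87% higher and 3.46% lower). Of the 12716 genes, 1655 had all 8R arrays above all NIC arrays and 1420 below. H2bc12, a clustered H2B gene, had 111, 94.4 and 131 in NIC and 192, 180 and 143 in 8R. All 8R arrays lay above all NIC arrays, and the difference was 0.55 ± 0.14 (SE, n = 3 against 3, limma adjusted p = 0.0143). H3f3b had 365, 315 and 356 in NIC and 517, 467 and 490 in 8R, again without overlap, a difference of 0.49 ± 0.12 (SE, limma adjusted p = 0.00765). Both missed the threshold without NIC CA1 polysome replicate 2 (H2bc12 0.45, adjusted p = 0.0984; H3f3b 0.43, 0.0541), and H2bc12 also without 8R CA1 polysome replicate 1 (0.47, 0.0866). H4c14 had 99.2, 54.4 and 85.9 in NIC and 137, 86.4 and 40.1 in 8R polysome RNA. These values overlap, and the difference was 0.03 ± 0.28 (SE, limma adjusted p = 0.969), with a 95% interval from -0.55 to 0.60. H2az1 had 272, 256 and 266 in NIC and 279, 279 and 161 in 8R, and differed by -0.17 ± 0.19 (SE, limma adjusted p = 0.639).

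In CA3 total RNA 2 of the 23 were called, against 15.5% of all genes, 14.2% higher and 1.34% lower. Of the 12716 genes, 2565 had all 8R arrays above all NIC arrays and 562 below. H3f3b had 279, 222 and 261 in NIC and 397, 418, 379 and 353 in 8R, all above the controls. The rise was 0.58 ± 0.11 (SE, n = 4 against 3, limma adjusted p = 0.000466). H4c14 had 186, 205 and 204 in NIC and 138, 133, 105 and 62.1 in 8R, all below the controls. The difference was -0.82 ± 0.26 (SE, limma adjusted p = 0.0323), and it missed the threshold without any NIC CA3 total replicate (-0.86, -0.80 and -0.80, adjusted p from 0.0652 to 0.107) and without 8R CA3 total replicate 3 (-0.82, 0.0633) or 4 (-0.61, 0.088). H2az1 had 266, 193 and 226 in NIC and 333, 311, 319 and 230 in 8R, which overlap, for 0.36 ± 0.18 (SE, limma adjusted p = 0.173).

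In CA3 polysome RNA none of the 23 was called by limma, against 2.66% of all genes (2.38% higher and 0.275% lower). By unadjusted p under 0.05, 3 histone genes passed, and 2385 of all 12716 genes. Over all genes, 1676 had all 8R arrays above all NIC arrays and 578 below. H3f3b had 287, 307 and 261 in NIC and 345, 416, 349 and 315 in 8R, every 8R array above every control, with a difference of 0.30 ± 0.11 (SE, limma adjusted p = 0.121). H2bc12, at 142, 150 and 123 in NIC and 147, 116, 123 and 170 in 8R, overlapped and differed by -0.00 ± 0.13 (SE). The change of CA1 set against that of CA3 was called for no histone gene in either fraction, and 3 genes of 12716 (0.0236%) were called in total RNA and 2 (0.0157%) in polysome RNA. By unadjusted p under 0.05, 0 histone genes passed in total RNA and 1 in polysome RNA, against 663 and 707 of all 12716 genes.

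**Figure D2:**
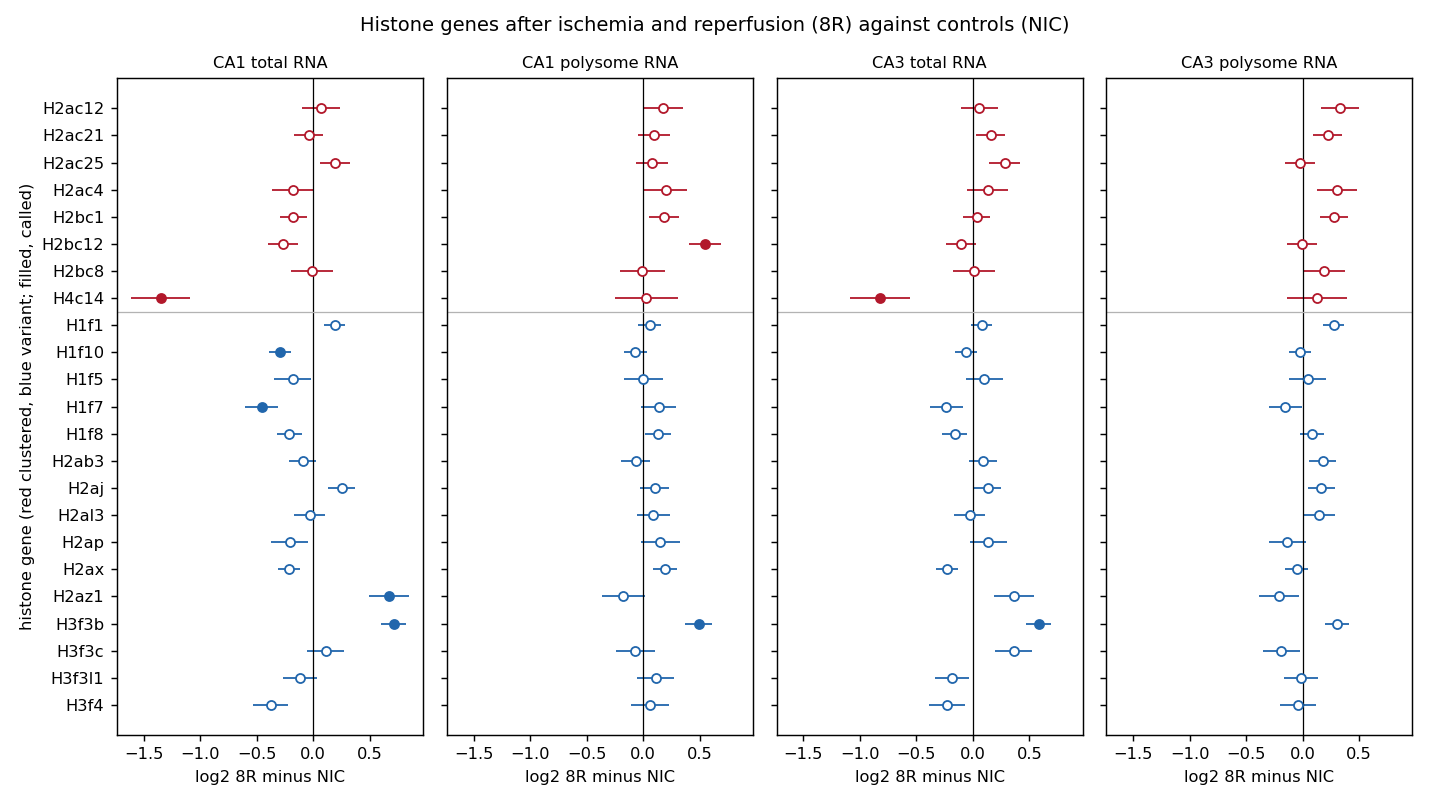
Log2 difference of 8R minus NIC (horizontal axis, log2 scale shared by the panels) with its standard error for the 23 histone genes tested, clustered genes in red above the line and variant genes in blue below it; filled points were called at an adjusted p under 0.05. H4c14 at -1.35 and -0.82 lies far left in both total RNA panels, and H3f3b is filled on the right in CA1 total, CA1 polysome and CA3 total RNA.

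Polysome RNA was then set against total RNA within each condition and region. This difference is between arrays of separate RNA preparations. It is not an amount per cell, and its zero depends on the scaling: the median over all genes was 0.20 in NIC CA1 and 0.18 in 8R CA1 but -0.00 in NIC CA3 and -0.01 in 8R CA3. Quantile normalization moved these medians to 0.04, 0.05, 0.07 and 0.06. In NIC CA1 all polysome arrays lay above all total RNA arrays for 6266 of the 12716 genes and below for 1050. These counts were 3954 and 3272 in NIC CA3, 3347 and 712 in 8R CA1, and 813 and 1548 in 8R CA3.

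In control tissue 4 of the 8 clustered genes were called lower in polysome than in total RNA in CA1 and 5 of 8 in CA3. In NIC CA1 7 of the 23 histone genes were called, against 44% of all genes (39.4% higher and 4.62% lower). The 4 called lower were clustered, of 8 tested, and the 3 called higher were variant, of 15 tested. H2bc1 (0.13) and H2bc8 (0.06) were the clustered genes above 0, neither called. H1f1 is among the 3; with H1f1 and H1f5 counted as clustered, 4 of 10 were called lower and 1 higher. In NIC CA3 8 were called, against 38.4% of all genes (21.5% higher and 16.9% lower), and 7 of them were lower, 5 clustered and 2 variant. The median of the clustered genes was -0.33 in NIC CA1 and -0.54 in NIC CA3, that of the variant genes 0.04 and -0.18. With quantile normalization the 7 calls of NIC CA1 were 0 higher and 7 lower, and those of NIC CA3 1 higher and 6 lower. The 3 variant genes called higher in NIC CA1 all lost that call, which thus depends on the scaling. The shares of all genes called under quantile normalization are not given here, so these counts are not read as particular to histone genes. With pool as a random block H2ax (-0.25) was also called lower and H2az1 (0.40) higher in NIC CA1 (51% of all genes called), and H2al3, H2ap, H2bc8 and H3f3l1 lower in NIC CA3 (48.7%).

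H4c14 stood lowest in both regions. In CA1 its 197, 193 and 236 in total RNA compare with 99.2, 54.4 and 85.9 in polysome RNA, and in CA3 186, 205 and 204 compare with 46.4, 83.6 and 68.0. No polysome array reached the lowest total RNA array of its region. The differences were -1.25 ± 0.28 (SE, n = 3 against 3, limma adjusted p = 0.00059) in CA1 and -1.41 ± 0.28 (SE, limma adjusted p = 0.000334) in CA3, called in all 18 other settings.

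H2bc12 had 208, 183 and 219 in total and 111, 94.4 and 131 in polysome RNA of NIC CA1, and 211, 184 and 237 against 142, 150 and 123 in NIC CA3. The fractions did not overlap in either region, and the differences were -0.78 ± 0.14 (SE, limma adjusted p = 5.52e-05) and -0.55 ± 0.14 (SE, limma adjusted p = 0.00329). H2ac21, a clustered H2A gene next to H2ac20, had 158, 127 and 141 in total and 97.7, 81.4 and 108 in polysome RNA of NIC CA1, and 203, 157 and 184 against 112, 107 and 109 in NIC CA3. It too was below in every polysome array, by -0.51 ± 0.14 (SE, limma adjusted p = 0.00352) and -0.65 ± 0.14 (SE, limma adjusted p = 0.000635). H2ac4, another H2A gene, was called at -0.53 in CA1 and -0.63 in CA3, but fell to -0.25 (limma adjusted p = 0.306) in CA1 without NIC CA1 polysome replicate 2 and lost the call without NIC CA1 total replicate 2 (-0.47, 0.0967) or 3 (-0.48, 0.0823), and in CA3 to -0.45 (0.0965) without NIC CA3 polysome replicate 3. H2ac12, whose start faces that of H2bc12, differed by -0.14 ± 0.18 (SE) in CA1 and was called at -0.53 ± 0.18 (SE, limma adjusted p = 0.0214) in CA3. The CA3 call was lost without NIC CA3 polysome replicate 2 (-0.50, 0.0618) or 3 (-0.39, 0.132) and without NIC CA3 total replicate 2 (-0.40, 0.126) or 3 (-0.41, 0.115).

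The variant genes were divided. H3f3c, with 111, 85.6 and 103 in total and 140, 143 and 168 in polysome RNA, was higher by 0.52 ± 0.18 (SE, limma adjusted p = 0.0164) in NIC CA1, and with 95.5, 59.9 and 105 against 124, 140 and 119 by 0.51 ± 0.18 (SE, limma adjusted p = 0.0234) in NIC CA3. The CA1 call was lost without NIC CA1 polysome replicate 3 (0.45, 0.0755) or total replicate 2 (0.43, 0.0888), and the CA3 call without NIC CA3 polysome replicate 2 (0.45, 0.0856) or total replicate 2 (0.31, 0.199). H3f3b was called higher in NIC CA1 at 0.30 ± 0.12 (SE, limma adjusted p = 0.0357), but was at -0.0030 with quantile normalization; without single NIC CA1 arrays it was 0.26 to 0.28 where the call was lost (polysome replicates 1 and 3, total replicates 2 and 3). H1f1, a linker histone, was called at 0.27 ± 0.10 (SE, limma adjusted p = 0.0287) in NIC CA1 and was at 0.12 (0.41) with quantile normalization; its call was lost without NIC CA1 polysome replicate 1 or 3 or any NIC CA1 total replicate (0.23 to 0.29). In NIC CA3 H2aj, a replacement H2A, had 56.1, 51.9 and 53.7 in total and 33.5, 38.2 and 36.1 in polysome RNA, a difference of -0.43 ± 0.13 (SE, limma adjusted p = 0.00935). H1f8, known as the linker histone of oocytes, was at -0.33 ± 0.12 (SE, limma adjusted p = 0.0233). It is dim, with a mean at percentile 41.9 of genes. With quantile normalization H2aj was at -0.31 (0.0723) and H1f8 at -0.19 (0.135), and H1f8 also lost its call without NIC CA3 polysome replicate 1 (-0.34, 0.0501) or 3 (-0.29, 0.0898) or total replicate 3 (-0.31, 0.0731).

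Of 4 RNAs that are not translated into protein, 3 were called lower in NIC CA1 and 3 in NIC CA3, against 4.62% and 16.9% of all genes. Rpph1, the RNA of RNase P, had the lowest difference of all genes, at -4.47 ± 0.24 (SE) and -4.65 ± 0.24 (SE). The other 3 differed less: Gas5 was at -1.30 and -1.42, Terc, the telomerase RNA, at -0.40 and -0.86, and Meg3, which was not called, at 0.04 and -0.31.

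**Figure D3:**
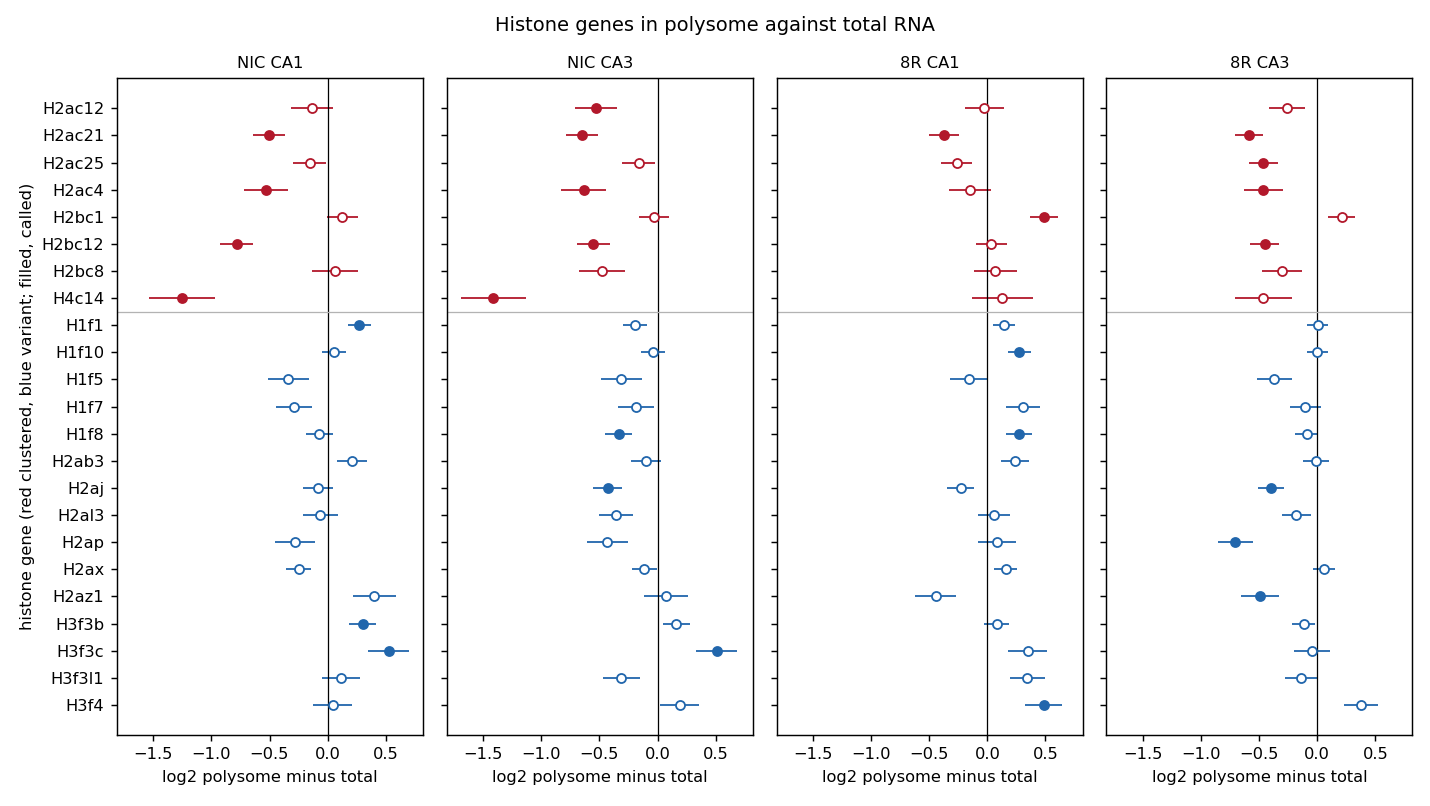
Log2 difference of polysome minus total RNA (horizontal axis, log2 scale shared by the panels) with its standard error for the 23 histone genes in the 2 conditions and 2 regions, clustered genes in red above the line and variant genes in blue; filled points were called at an adjusted p under 0.05. H4c14 lies at -1.25 and -1.41 in controls and at 0.13 and -0.46 in 8R.

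After reperfusion the clustered median of the polysome minus total difference was 0.00 in CA1 and -0.46 in CA3. In 8R CA1 5 of the 23 histone genes were called, against 34.4% of all genes (28.5% higher and 5.9% lower). H2ac21 was the gene called lower (-0.37 ± 0.13, SE, limma adjusted p = 0.027), and H2bc1, H3f4, H1f10 and H1f8 were called higher. The variant median was 0.16. With pool as a random block 8 were called, 6 higher and 2 lower, against 43.9% of all genes (36.5% higher and 7.36% lower); the genes added were H2az1 (-0.43), H3f3c (0.37) and H3f3l1 (0.34). With quantile normalization the 5 calls were 1 higher and 4 lower, and the shares of all genes under that scaling are not given. H2ac21 was at -0.16 (limma adjusted p = 0.334) without 8R CA1 polysome replicate 3, and its call was also lost without 8R CA1 total replicate 1 (-0.33, 0.0757) or 3 (-0.32, 0.0712). H3f4 (0.48) lost its call without 8R CA1 polysome replicate 3 (0.43, 0.0669) or total replicate 2 (0.34, 0.0979). H1f10 (0.28) lost it without polysome replicate 1 (0.23, 0.11) or total replicate 1 (0.25, 0.0699) or 4 (0.23, 0.0781). H1f8 (0.27, 0.0499) kept it among the arrays of 8R CA1 only without polysome replicate 2, and was at 0.18 (0.265) without polysome replicate 3. H2bc1, the H2B of testis, had 22.6, 28.0, 32.0 and 31.4 in total and 41.7, 49.3 and 48.1 in polysome RNA of 8R CA1. These do not overlap, and the difference was 0.49 ± 0.12 (SE, limma adjusted p = 0.00268). H4c14, at 97.4, 89.2, 63.8 and 46.1 in total and 137, 86.4 and 40.1 in polysome RNA, overlapped between fractions and differed by 0.13 ± 0.26 (SE, limma adjusted p = 0.724). H2bc12, at 191, 179, 177 and 126 in total and 192, 180 and 143 in polysome RNA, differed by 0.03 ± 0.13 (SE, limma adjusted p = 0.85).

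In 8R CA3 7 of the 23 were called, all lower, against 20.6% of all genes (7.7% higher and 12.9% lower). They were the clustered H2ac21, H2ac25, H2ac4 and H2bc12 and the variants H2ap, H2az1 and H2aj. H2ac21 had 224, 191, 204 and 193 in total and 136, 128, 133 and 123 in polysome RNA, with no overlap, for -0.58 ± 0.12 (SE, n = 4 against 4, limma adjusted p = 0.000572). H2bc12 had 194, 197, 186 and 200 in total and 147, 116, 123 and 170 in polysome RNA, again with no overlap, for -0.45 ± 0.12 (SE, limma adjusted p = 0.00801). H2ac25 differed by -0.46 ± 0.12 (SE, limma adjusted p = 0.00708), and both H2ac25 and H2bc12 were called in each of the 21 other settings. H2ap, an X-linked H2A gene of the germ line, had 49.9, 46.8, 34.6 and 48.8 in total and 23.2, 10.8, 26.3 and 27.4 in polysome RNA, for -0.70 ± 0.15 (SE, limma adjusted p = 0.00101). It is dim, with a mean at percentile 37.0 of genes. The median over all probe sets was 27.1 to 31.8 on these polysome arrays. H2az1, at -0.49 ± 0.16 (SE, limma adjusted p = 0.0291), was at -0.28 (0.153) without 8R CA3 polysome replicate 4, and missed the threshold without total replicate 1, 2 or 3 (-0.47 to -0.44, adjusted p from 0.0676 to 0.092). H2ac4 (-0.46, 0.0469) missed it without polysome replicate 2 or 3 or any total replicate (-0.50 to -0.39, 0.0597 to 0.145), and H2aj (-0.40, 0.00961) without total replicate 2 (-0.27, 0.0707). H4c14 differed by -0.46 ± 0.24 (SE, limma adjusted p = 0.194). With pool as a random block 10 were called, 1 higher and 9 lower, against 29.9% of all genes (12.4% higher and 17.4% lower): H4c14 (-0.46, limma adjusted p = 0.0435) and H1f5 (-0.37, 0.0329) were added as lower and H3f4 (0.38, 0.0159) as higher. The variant median was -0.10.

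**Figure D4:**
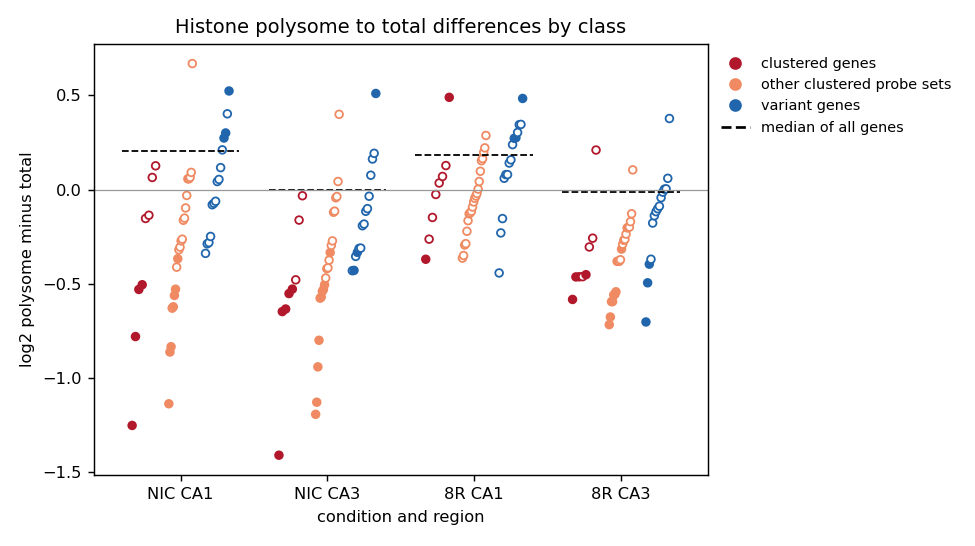
Log2 difference of polysome minus total RNA (vertical axis) for the clustered genes (red), the variant genes (blue) and the other clustered probe sets, which name a histone gene outside the rule or several genes (orange), in the 4 tissues on the horizontal axis; filled points were called, and the dashed line is the median of all genes. Clustered medians are -0.33, -0.54, 0.00 and -0.46 in NIC CA1, NIC CA3, 8R CA1 and 8R CA3, and those of the other clustered probe sets -0.29, -0.42, -0.06 and -0.34.

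The change of polysome RNA with ischemia was set against the change of total RNA in a single term of the fit. In CA1 2 of the 23 histone genes were called, H4c14 and H2bc12, both clustered and both with the polysome change above the total change, against 3.82% of all genes (0.409% higher and 3.41% lower). H4c14 differed by 1.38 ± 0.39 (SE, limma adjusted p = 0.04): total RNA changed by -1.35 and polysome RNA by 0.03. Within pools, its polysome minus total difference was -0.88, -1.57 and -1.31 in NIC and 0.43, 0.36 and -0.15 in 8R CA1. H2bc12 differed by 0.82 ± 0.19 (SE, limma adjusted p = 0.0197), from -0.26 in total and 0.55 in polysome RNA. Its pools gave -0.81, -0.85 and -0.67 in NIC and 0.00, 0.03 and 0.17 in 8R CA1. For both genes every reperfused pool lay above every control pool, and the share of all genes for which this holds is not given. These values share the arrays of the comparisons above. In the same test Rpph1 was called, at 1.64 ± 0.33 (SE, limma adjusted p = 0.00963), and Terc (0.32), Gas5 (0.01) and Meg3 (-0.07) were not. The summed intensity of the 4 untranslated RNAs was 255 to 419 in NIC CA1 polysome RNA and 439 to 882 in 8R, against 5228 to 5494 and 3923 to 4394 in total RNA. The part of such RNA in the H4c14 and H2bc12 differences was not tested.

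The call of H4c14 was lost without any of the 3 NIC CA1 polysome arrays, any of the 3 NIC CA1 total arrays, 8R CA1 polysome replicate 1 or 8R CA1 total replicates 1, 3 or 4, with values from 1.04 to 1.53 and adjusted p from 0.0536 to 0.107, and with pseudocount 1, no filter, median scaling or all probe sets as features (1.33 to 1.54). That of H2bc12 was lost without NIC CA1 polysome replicate 2 (0.71, 0.0568) or NIC CA1 total replicate 2 (0.88, 0.0552). With pool as a random block 5 genes were called in CA1, against 14.1% of all genes (2.59% higher and 11.5% lower): H4c14 (1.44), H2bc12 (0.81), H1f7 (0.54) and H2ax (0.42) higher, and H2az1 (-0.83) lower. The polysome change was above the total change for 7 of the 8 clustered and 10 of the 15 variant genes in CA1, and the medians were 0.25 and 0.18, against -0.06 for all genes. In CA3 no histone gene was called by limma, against 0.165% of all genes. By unadjusted p under 0.05, 3 histone genes passed, and 2622 of all 12716 genes. With the block 3 were called, against 10.7% of all genes (3.54% higher and 7.12% lower): H4c14 (0.95) higher, and H2az1 (-0.57) and H3f3c (-0.55) lower. Without the block H4c14 in CA3 was 0.95 ± 0.37 (SE, limma adjusted p = 0.166), with pool differences of -1.69, -1.15 and -1.39 in NIC and -0.69, -0.32, -0.47 and -0.38 in 8R.

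CA1 was set against CA3 within each condition and fraction. In NIC total RNA limma called no histone gene, against 3.47% of all genes (2.41% higher and 1.06% lower). By unadjusted p under 0.05, 2 histone genes passed, and 1654 of all 12716 genes. In 8R total RNA H2ac21 was called, at 152, 137, 154 and 110 in CA1 and 224, 191, 204 and 193 in CA3, all CA1 arrays below all CA3 arrays. The difference was -0.51 ± 0.12 (SE, limma adjusted p = 0.00631), against 6.63% of all genes called (3.57% higher and 3.06% lower), and was called in all 21 other settings. Of the 12716 genes, 518 had all CA1 arrays below all CA3 arrays and 686 above. In controls H2ac21 was at -0.32 ± 0.14 (SE, limma adjusted p = 0.291). With pool as a random block 2 were called in 8R total RNA, 1 higher and 1 lower, against 12.7% of all genes. In polysome RNA the median of all genes was itself shifted to CA1, by 0.23 in NIC and 0.19 in 8R. H2bc8 (0.60) and H2ab3 (0.38) were called in NIC, against 28.4% of all genes (27.7% higher and 0.731% lower), and H3f3b (0.45), H2ap (0.45) and H3f3l1 (0.44) in 8R, against 25.3% (24.1% higher and 1.23% lower). With quantile normalization, which moved those medians to 0.00 and -0.01, 0 and 2 histone genes were called. The shares of all genes under that scaling are not given. With pool as a random block 5 and 6 were called, against 42.5% and 35% of all genes. Same-numbered 8R arrays of CA1 and CA3 deviated together (correlations from 0.124 to 0.777 over 7 pairs; -0.0174 to 0.0991 over 6 pairs in NIC), which the fit without the block does not use. Without single arrays the calls of H2bc8 fell to 0.32 (without NIC CA3 polysome replicate 3, limma adjusted p = 0.246), H2ab3 to 0.31 (NIC CA1 polysome replicate 1, 0.127), H2ap to 0.29 (8R CA3 polysome replicate 2, 0.178) and H3f3l1 to 0.37 (8R CA1 polysome replicate 2, 0.121). H3f3b in 8R was at 0.28 (limma adjusted p = 0.202) with each array scaled to the same median. It also missed the threshold with only the compared groups in the fit (0.45, 0.0519).

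Other histone probe sets name several genes at once or carry older Hist symbols, and were tested in a fit over all 25679 probe sets that passed the same percentile. There were 29, of which 26 passed: 22 for core histones and 4 naming H2A.Z or H3f3 genes. Among the 22, 7 were called lower in polysome RNA in NIC CA1 (5.02% of all probe sets were called lower), 10 in NIC CA3 (16.5%), 0 in 8R CA1 (5.51%) and 6 in 8R CA3 (10.7%), and 0 were called higher in any of the 4 (25.6%, 13.1%, 16.4% and 4.3% of all probe sets). In 8R CA1, where limma called 0 of the 22, 1 had an unadjusted p under 0.05, as did 9029 of all 25679 probe sets. In total RNA after reperfusion 3 were called lower and 1 higher in CA1 (4% and 13.1% of all probe sets), and 3 lower and 0 higher in CA3 (0.9% and 7.89%). In polysome RNA limma called 0 of the 22 in CA1 and 0 in CA3 (4.04% and 2.45% of all probe sets). By unadjusted p under 0.05, 2 and 1 passed, against 4358 and 4985 of all 25679 probe sets.

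Several of these probe sets bear on H4c14, since 3 name it together with H4cl3, Hist1h4m and Hist1h4b. Probe set 17795957 had 453, 444 and 443 in NIC CA1 total RNA and 296, 265, 252 and 336 in 8R. All reperfused arrays were below the controls, by -0.62 ± 0.15 (SE, limma adjusted p = 0.00479), and in CA3 total RNA by -0.57 ± 0.15 (SE, limma adjusted p = 0.0171). In CA1 its polysome change exceeded its total change by 0.99 ± 0.22 (SE, limma adjusted p = 0.0281; 1.35% of all probe sets were called). For 2421 of all 25679 probe sets, all 8R arrays lay below all controls in CA1 total RNA. Probe set 17715824 was called lower in CA3 total RNA, at -0.86 ± 0.26 (SE, limma adjusted p = 0.0399), and was at -0.72 ± 0.26 (SE, limma adjusted p = 0.0594) in CA1. Probe set 17719501 was called in neither, at -0.31 ± 0.14 (SE, adjusted p = 0.13) in CA1 and -0.11 ± 0.14 (SE, adjusted p = 0.679) in CA3 by limma. The dim probe set of Hist1h4b alone moved the other way in CA1 total RNA, from at most 33.6 on the 3 control arrays to 68.0, 65.5, 54.7 and 51.7, a rise of 0.68 ± 0.15 (SE, limma adjusted p = 0.00211). The H4 probe sets thus did not all move together. Hist1h3b, an H3 gene (-0.47), and a probe set shared by the H2A genes Hist2h2aa2 and H2ac18 (-0.54) were also called lower in CA1 total RNA; H2ac18 is the gene next to H4c14. The shared probe set had 125, 125 and 118 in NIC, and at most 68.3 in 8R replicates 1 to 3 but 130 in replicate 4, above the controls. Probe set 17808428, naming H2az2, the second H2A.Z gene, and its 3 copies, rose in CA1 total RNA by 0.63 ± 0.17 (SE, limma adjusted p = 0.0132), from 33.1, 33.7 and 33.8 to 69.6, 74.8, 61.6 and 41.1. The other probe sets naming the same genes were not called there, 17691431 at -0.12 ± 0.19 (SE) and 17696128 at -0.21 ± 0.12 (SE). Probe set 17829405, which names H3f3b and H3f3l1, was not called there either. Over the 4 probe sets naming H2A.Z or H3f3 genes, differences in CA1 total RNA ran from -0.21 to 0.63, with a median of 0.02. Of the 4 probe sets naming H2A.Z or H3f3 genes, 0 were called in CA1 polysome, CA3 total or CA3 polysome RNA. Of all probe sets, 4.04% were called in CA1 polysome RNA and 2.45% in CA3 polysome RNA. In CA3 total RNA 7.89% were called higher and 0.9% lower.

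Genes that make, carry or end histone mRNA and protein were described from lists chosen with earlier results of these data known. Of 22 tested genes for histone mRNA transcription and processing, 9 rose and 0 fell in CA1 total RNA (20.1% and 6.15% of all genes). In CA1 polysome RNA 2 rose (4.87% of all genes), and in CA3 total RNA 5 rose (14.2%). In CA3 polysome RNA limma called 0 (2.66% of all genes), and 3 had an unadjusted p under 0.05 (2385 of all 12716 genes). The largest rises in CA1 total RNA were those of the cap-binding genes Ncbp1 (0.62 ± 0.09, SE) and Ncbp2 (0.59 ± 0.14, SE) and of Nfya (0.56 ± 0.12, SE) and Nfyb (0.51 ± 0.12, SE), subunits of the factor that binds CCAAT. Slbp was not called in any of the 4 comparisons, at -0.07 and -0.37 in CA1 total and polysome RNA and 0.24 and 0.07 in CA3. Of 25 histone chaperone and assembly genes, 8 rose and 2 fell in CA1 total RNA (20.1% and 6.15% of all genes) and 4 rose in CA3 total RNA (14.2%). In polysome RNA limma called 0 of them in CA1 and 0 in CA3 (8.33% and 2.66% of all genes). By unadjusted p under 0.05, 8 and 3 passed, against 2931 and 2385 of all 12716 genes. In CA1 total RNA the largest rises were as follows. Rbbp7 (0.62 ± 0.10, SE), the nucleosome assembly genes Nap1l5 (0.60 ± 0.13, SE) and Nap1l1 (0.52 ± 0.12, SE), and Anp32e (0.55 ± 0.12, SE), a chaperone that removes H2A.Z, rose most. Those that fell were Cabin1, of the complex that deposits the replacement H3, by 0.42, and Ipo4, an importin that carries H3 and H4, by 0.35. Of 28 genes of DNA replication and proliferation on the array, 13 did not pass the filter on low values, and of the 15 tested 4 rose in CA1 total RNA (Mcm4, Aurkb, Pcna and Tyms, by 0.36 to 0.56; 20.1% of all genes rose) and 1, Aurkb, in CA3 total RNA (14.2%). In polysome RNA limma called 0 of the 15 in CA1 and 0 in CA3 (8.33% and 2.66% of all genes). By unadjusted p under 0.05, 1 and 5 passed, against 2931 and 2385 of all 12716 genes.

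Markers of other cell types moved in the same comparisons. In CA1 total RNA 5 of 9 astrocyte markers and 3 of 8 microglia and macrophage markers were called higher (20.1% of all genes), and 3 of 9 oligodendrocyte precursor markers lower (6.15%). Intensity summed over all genes of a list on the array ran from 4492 to 4655 in NIC and from 5720 to 6506 in 8R for astrocytes, from 458 to 507 and from 551 to 625 for microglia, and from 1036 to 1142 and from 896 to 938 for oligodendrocyte precursors, a cell type that keeps dividing in adult brain. In CA3 total RNA these sums were 4133 to 4240 and 4534 to 5730, 419 to 472 and 523 to 588, and 881 to 911 and 851 to 983. In CA1 polysome RNA the astrocyte sum was 5602 to 5715 in NIC and 6292 to 7572 in 8R, the microglia sum 475 to 504 and 595 to 793, and the precursor sum 1062 to 1186 and 1030 to 1193. In 8R the total RNA of CA1 had a CA1 pyramidal sum of 1271 to 2160 and a CA3 pyramidal sum of 1992 to 2333. The CA1 pyramidal sum in CA1 polysome RNA was 2372 to 2678 in NIC and 1596 to 2776 in 8R. The CA3 pyramidal sum in CA1 polysome RNA was 2555 to 2706 in NIC and 1934 to 2072 in 8R, where 4 of its 12 genes were called lower (3.46% of all genes). The part of these markers in the histone differences was not tested.

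Pool 4 of the reperfused rats stood apart for clustered genes in CA1. Of the 8 clustered genes, 7 were lowest in pool 4 in 8R CA1 total RNA and 5 in 8R CA1 polysome RNA, with median differences from the other pools of -0.46 and -0.37. Over all genes 30.6% and 37.0% were lowest there. Of the 15 variant genes, 7 and 6 were lowest in pool 4 in these CA1 groups. In CA3 2 of 8 clustered genes were lowest in total and 3 of 8 in polysome RNA (46.6% and 42.5% of all genes). H4c14 was also lowest in pool 4 in CA3, differing from the other pools by -0.85 in total and -0.73 in polysome RNA. Without the pool 4 arrays H4c14 was at -1.18 (limma adjusted p = 3.36e-06) in CA1 total RNA and -0.61 (0.0068) in CA3 total RNA, and its polysome change exceeded its total change by 1.60 (0.00102) in CA1 and 0.92 (0.019) in CA3. For polysome against total change without pool 4, 1.23% of all genes were called higher and 7.35% lower in CA1. In CA3 these shares were 2.67% and 7.22%. The number of called histone genes was then 8 in CA1 total RNA (4 higher and 4 lower, against 26.3% and 11% of all genes in that fit), 6 in CA3 total RNA (4 higher and 2 lower, against 29.2% and 5.1%) and 1 in CA3 polysome RNA (3.64% called). H2az1 was called in CA3 total RNA without pool 4, at 0.47 (limma adjusted p = 0.000473).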

How the data were processed

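The authors deposited 1 linear intensity per probe set and array (Affymetrix Rat Gene 2.0, PLIER in Affymetrix Expression Console, per the submitters' processing notes); the scaling between arrays is not given in the sources used here. Of 36685 probe sets, 18511 name a single gene, 575 several and 17599 none in the platform annotation; the brightest probe set of each gene was used. Values were taken as log2(intensity + 16). Genes were tested where the mean over 27 arrays reached the 30th percentile. One limma (3.58.1, R 4.3.3) model over all 8 groups, with 19 residual degrees of freedom, gave each difference; adjusted p-values are limma's with Benjamini-Hochberg adjustment over 12716 genes, and a call is an adjusted p under 0.05. The model was tested on simulated data.

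The histone genes and the other gene lists were chosen with earlier results of these data known. Values on every array are given for genes called in a comparison of 8R with NIC and for up to 3 genes per class with the largest called polysome difference. The array values of H2aj, H2ax, H2bc1 and single shared probe sets, and the names Cabin1 and Ipo4, were added after their values were seen.

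The study's design states that total and polysome RNA of a pool came from the same supernatant. Deviations from group means of the same pool correlated at 0.328 to 0.663 in 8R CA1 (3 pairs) and 0.284 to 0.772 in 8R CA3 (4 pairs), and at 0.0394 to 0.223 and -0.0372 to 0.0305 in NIC CA1 and CA3 (3 pairs each). Same-numbered 8R arrays of CA1 and CA3 correlated at 0.124 to 0.777 (7 pairs) and NIC arrays at -0.0174 to 0.0991 (6 pairs); the labels do not say whether a number marks the same rats in both regions. Arrays were treated as independent, with the pool as a block as an alternative. Other alternatives were the pseudocount, the filter, the scaling, array weights, fewer groups in the fit and leaving out each array or pool 4. No array was left out otherwise. The number of arrays limits the precision.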

Additional observations from a re-analysis of the deposited data

Results flagged for a closer look

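Among 69 groups of 4 arrays checked for a value far from the others, of which chance would mark about 1 in 20, 4 held one. H2az1 in 8R CA3 polysome RNA had a log2 value of 7.15 in replicate 4 (intensity 126), below the nearest array at 7.98. H1f8 in 8R CA3 polysome RNA was at 5.38 in replicate 2 (intensity 25.5), with the nearest at 5.72. H1f1 in 8R CA3 polysome RNA was at 6.71 in replicate 4 (intensity 88.9), above the nearest at 6.50. H3f3l1 in 8R CA1 total RNA was at 8.10 in replicate 3 (intensity 258), above the nearest at 7.81.

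In CA1 the change with ischemia and reperfusion differed between polysome and total RNA for H4c14 by 1.38 (limma adjusted p = 0.04) and for H2bc12 by 0.82 (limma adjusted p = 0.0197).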

How the results depend on the processing

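Of 44 results on named genes, with 845 values under the alternatives, 684 kept direction and side of the threshold, 160 kept the direction and missed it, and 1 reversed: H3f3b, polysome minus total in NIC CA1, at -0.0030 with quantile normalization. H4c14 and H3f3b in CA1 total RNA and H3f3b in CA3 total RNA were called in all 19 settings each. The cause of a change of count was not tested, except that leaving out arrays leaves fewer samples. Counting H1f1 to H1f6 as clustered moved no total of called clustered genes beyond 1.5 times, and added 1 gene called higher for polysome minus total in NIC CA1. H3f4, the other tested variant next to a clustered gene, was not moved in this check. The number of pools, 3 or 4 a group, limits the precision of every value.

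Counts of called histone genes that moved by over 1.5 times were as follows. For most of these fits, here and below, the share of all genes called is not given. The counts are therefore not read as changes particular to histone genes. The calls of all genes move with the setting too: in CA1 total RNA they were 26.3% in the main fit and 37.4% without pool 4. Pseudocount 1 left 1 in the CA1 comparison of polysome with total change; no filter left 1 there and 4 for CA1 minus CA3 in NIC polysome RNA. The 50th percentile as filter gave 3 for polysome minus total in 8R CA1. Quantile normalization gave 0 for CA1 minus CA3 in NIC polysome RNA and 2 in 8R total RNA. Median scaling gave 1 in CA3 total RNA, 4 and 3 for polysome minus total in NIC CA3 and 8R CA1, 0 and 1 for CA1 minus CA3 in NIC and 8R polysome RNA, and 1 for polysome against total change in CA1. All probe sets as features gave 1 in CA3 total RNA, 1 and 1 for CA1 minus CA3 in NIC and 8R polysome RNA, and 1 for polysome against total change in CA1. Array weights gave 8 and 7 in CA1 and CA3 total RNA, 11 for polysome minus total in 8R CA3, 2, 5 and 3 for CA1 minus CA3 in NIC total, NIC polysome and 8R total RNA, and 4 and 3 for polysome against total change in CA1 and CA3. A fit of the compared groups alone gave 1 in CA1 polysome RNA, 2 for polysome minus total in 8R CA1, and 5 and 0 for CA1 minus CA3 in NIC and 8R polysome RNA. Without pool 4 of 8R the counts were 8 and 6 in CA1 and CA3 total RNA, 1 in CA3 polysome RNA and 3 for polysome against total change in CA3. In the last of these 9.89% of all genes were called.

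With the pool as a random block (consensus correlation 0.268) the counts were 8 for polysome minus total in 8R CA1, 5, 2 and 6 for CA1 minus CA3 in NIC polysome, 8R total and 8R polysome RNA, and 5 and 3 for polysome against total change in CA1 and CA3. With the pool as a fixed term they were 1, 5, 3 and 6 for CA1 minus CA3 in NIC total, NIC polysome, 8R total and 8R polysome RNA, and 5 and 3 for polysome against total change. The block moved no other count beyond 1.5 times.

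Leaving out 1 array gave 2 to 5 calls in CA1 total, 0 to 2 in CA1 polysome, 1 to 2 in CA3 total and 0 to 0 in CA3 polysome RNA. Polysome minus total ranged over 3 to 6 in NIC CA1, 6 to 8 in NIC CA3, 2 to 7 in 8R CA1 and 4 to 7 in 8R CA3. CA1 minus CA3 ranged over 0 to 0 in NIC total, 0 to 3 in NIC polysome, 1 to 1 in 8R total and 2 to 3 in 8R polysome RNA, polysome against total change over 0 to 3 in CA1 and 0 to 0 in CA3, and CA1 against CA3 change over 0 to 0 in both fractions.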
